A study of Homo sapiens with 6 samples.

Results

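The small MAF proteins MAFF, MAFG and MAFK, the repressors BACH1 and BACH2, the activators NFE2L1 (NRF1) and NFE2L2 (NRF2) and the NRF2 inhibitor KEAP1 were followed in cells labelled A498, a line derived from a human clear cell renal carcinoma, after knockdown of RNF26. These 8 genes were taken by symbol from a table of 61541 genes. All 8 were among the 14766 genes with a mean of at least 1 CPM (counts scaled to library size) over the libraries, which were the genes tested. RNA sequencing covered 2 groups of 3 libraries. The shRNF26 libraries came from cells with a short hairpin RNA against RNF26, a ubiquitin ligase of the endoplasmic reticulum membrane, and the shcontrol libraries from cells with a control hairpin. RPMI-1640 medium with fetal bovine serum was used for both groups, and both carry the treatment label transfection infection. The labels used here give no hairpin sequence, no number of hairpins and no word on clones. No label states that replicates were grown apart, so the p-values reflect library-to-library spread alone, which may be technical. The 8 factors were chosen by family but selected on their fold changes in this contrast, which were known from earlier work on these data, so their values are a description and no test is read from them.

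Small MAF proteins are basic leucine zipper factors that bind DNA but lack an activation domain. They pair with each other, which represses, or with the larger cap'n'collar factors. Paired with NRF2 or NRF1 they activate genes for glutathione synthesis, detoxification and the proteasome, and paired with BACH1 or BACH2 they silence many of the same genes until haem binds the BACH protein and removes it. KEAP1 holds NRF2 low by presenting it to a CUL3 ubiquitin ligase, and NRF1 is made as a protein of the endoplasmic reticulum membrane.

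Library totals ran from 16682871 to 18021718 counts, and libraries of 1 group correlated at 0.992 to 0.994 across genes. RNF26 averaged 68.7 ± 0.482 CPM in the shRNF26 libraries and 1972 ± 49.7 CPM in the shcontrol libraries (SD, n = 3 each). Per kilobase of exon these levels were 24.6 and 708 CPM. The shcontrol level was above those of the ferritin genes FTL (682) and FTH1 (663) in the same libraries, and its origin was not tested. No libraries of untreated cells were at hand, so the contrast does not show which group departs from them. The libraries went against the tissue label in part. Of 11 renal and clear cell markers, 9 had a mean below 1 CPM and EMX2 had no count, while 0 of 9 squamous epithelial markers were below 1 CPM. That cut hides low members, since the squamous markers KRT13 and KRT14 averaged 1.47 and 3.55 CPM over the libraries. The other squamous markers ran from 19.0 CPM for DSC3 to 676 CPM for PERP, with TP63 at 183 CPM. The renal marker PAX8 averaged 2.50 CPM, above KRT13. Summed renal markers were 23.7 to 27.7 CPM in shRNF26 libraries and 52.5 to 54.4 CPM in shcontrol libraries. VIM, the abundant member of that list, carried the difference, with a mean of 19.9 CPM in shRNF26 libraries and 48.4 CPM in shcontrol libraries, and the other 10 summed to 4.77 to 6.10 CPM in shRNF26 libraries and 4.67 to 6.05 CPM in shcontrol libraries. Summed squamous markers were 2068 to 2092 CPM in shRNF26 libraries and 2185 to 2281 CPM in shcontrol libraries. Its members went both ways: SFN averaged 211 CPM in shRNF26 libraries and 387 CPM in shcontrol libraries, while KRT5 averaged 643 CPM in shRNF26 libraries and 564 CPM in shcontrol libraries. The part of either marker group in the values below was not tested.

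The small MAF genes were lower in the shRNF26 libraries, most of all MAFF and MAFK, while NFE2L1 and KEAP1 stood close to their control levels. In the fit across all genes, 7 of the 8 factors were called lower and 0 higher, where 22.6% of all tested genes were called lower, 18.9% higher and 41.4% in either direction. With total-count scaling the calls over all genes turned from a split of 2785 higher and 3332 lower to 4449 higher and 2269 lower. The median log2 fold change was -0.59 over the 8 factors and 0.01 over all tested genes. In 7 of the 8 genes every shRNF26 library was below every shcontrol library, which held for 25.9% of all tested genes, and groups stood apart in either direction for 50.1%. This holds for the TMM-scaled levels. As shares of total counts, the groups overlapped for NFE2L1 and NFE2L2, and KEAP1 was higher in every shRNF26 library. These shares are given for scale only, since the 8 genes were chosen with the contrast in view. In bulk RNA, fewer cells that express a gene and less RNA per cell cannot be told apart.

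**Figure D1:**
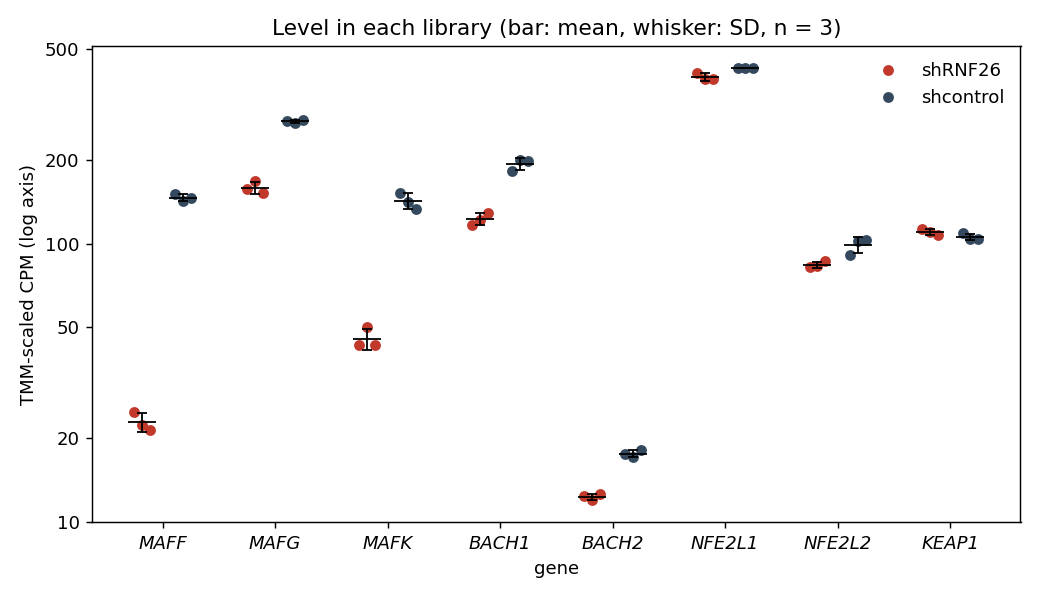
TMM-scaled counts (CPM) of each of the 8 genes (log axis) in the 3 shRNF26 libraries (left of each pair) and the 3 shcontrol libraries (right). Points are libraries, bars means and whiskers SD. The groups stand apart for MAFF, MAFK and MAFG and overlap only for KEAP1.

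MAFF (ENSG00000185022), a small MAF whose transcript is known to be induced by stress and growth signals, differed most. It had 24.9, 22.3 and 21.3 CPM in the shRNF26 libraries, against 150, 142 and 146 CPM in the shcontrol libraries. The highest shRNF26 library was at 17.6% of the lowest shcontrol library. The counts behind these levels were 443, 411 and 367 in shRNF26 libraries and 2617, 2330 and 2391 in shcontrol libraries, so depth is not a limit here. The difference was 6.38-fold lower in shRNF26 libraries (log2 fold change -2.67, SE 0.060, 95% interval -2.80 to -2.55). MAFF ranked 41 from the lowest of the 14766 log2 fold changes.

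MAFK (ENSG00000198517), which is expressed in many tissues and pairs with the same partners, had 43.2, 50.2 and 43.2 CPM in the shRNF26 libraries, against 152, 141 and 133 CPM in the shcontrol libraries. The groups were far apart, with the highest shRNF26 library at 37.6% of the lowest shcontrol library. The level was 3.12-fold lower in shRNF26 libraries (log2 fold change -1.64, SE 0.063, 95% interval -1.77 to -1.51), which ranked 130 from the lowest.

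MAFG (ENSG00000197063), itself a known target of NRF2, was the most abundant small MAF per length of exon. It had 157, 167 and 152 CPM in the shRNF26 libraries, against 276, 271 and 278 CPM in the shcontrol libraries. The groups did not overlap, and the level was 1.73-fold lower in shRNF26 libraries (log2 fold change -0.79, SE 0.043, 95% interval -0.88 to -0.70). Each small MAF gene overlaps a protein-coding neighbour in GENCODE 29, PLA2G6 at MAFF and TMEM184A at MAFK on the opposite strand and SIRT7 at MAFG on the same strand. Their log2 fold changes were 0.42 for PLA2G6 (SE 0.20), 0.06 for TMEM184A (SE 0.097) and -0.10 for SIRT7 (SE 0.073), and none was called in edgeR.

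Taken per length of exon, the 3 small MAF genes together had a level of 44.7 ± 2.33 CPM per kilobase in shRNF26 libraries and 110 ± 2.79 CPM per kilobase in shcontrol libraries (SD, n = 3 each), so the summed level was at 40.4% of control. The make-up of the sum also differed. MAFG made up 68.0% ± 0.316 of it in shRNF26 libraries and 47.7% ± 1.14 in shcontrol libraries. MAFF made up 9.13% ± 0.846 in shRNF26 libraries and 23.5% ± 0.272 in shcontrol libraries. MAFK made up 22.8% ± 0.937 in shRNF26 libraries and 28.8% ± 1.28 in shcontrol libraries. On this per-length scale the ratio of summed small MAF to summed BACH1, BACH2, NFE2L1 and NFE2L2 transcripts was 0.451 ± 0.030 in shRNF26 libraries and 0.948 ± 0.041 in shcontrol libraries. Exon length here is the union of all annotated exons of a gene, not the length of the transcript expressed. The summed level, shares, ratios and order of genes per length depend on that choice, unlike the fold changes of single genes. Gene counts do not show how much protein or which dimers were present.

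**Figure D2:**
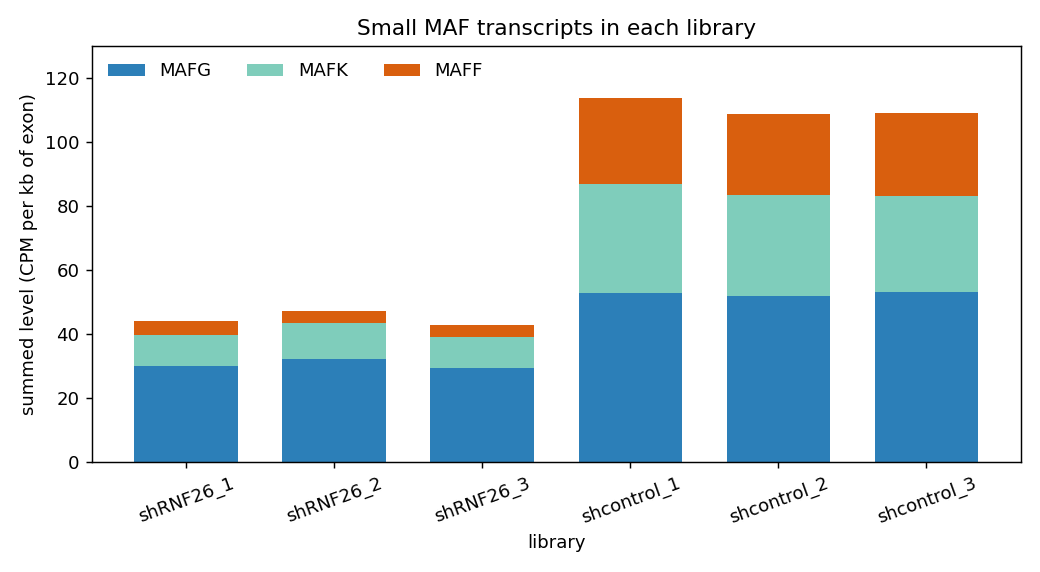
Level of MAFG, MAFK and MAFF per kilobase of exon, stacked, in each library, with shRNF26 libraries on the left and shcontrol libraries on the right. The stacks reach 42.7 to 47.2 CPM per kilobase in shRNF26 libraries and 109 to 114 CPM per kilobase in shcontrol libraries, and MAFG forms a larger share of each shRNF26 stack.

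BACH1 (ENSG00000156273), the haem-sensitive repressor of HMOX1 and ferritin genes, was lower by a smaller factor. It had 117, 121 and 129 CPM in the shRNF26 libraries, against 182, 199 and 198 CPM in the shcontrol libraries. The groups did not overlap, and the level was 1.58-fold lower in shRNF26 libraries (log2 fold change -0.66, SE 0.048, 95% interval -0.76 to -0.56). BACH1-IT1, a transcript annotated inside a BACH1 intron on the same strand, had a log2 fold change of -0.62 (SE 0.23).

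BACH2 (ENSG00000112182), known mainly for its role in lymphocytes, had the lowest level per length of the 8 genes. It had 12.4, 12.0 and 12.6 CPM in the shRNF26 libraries, against 17.6, 17.1 and 18.2 CPM in the shcontrol libraries. The groups did not overlap, and the level was 1.43-fold lower in shRNF26 libraries (log2 fold change -0.52, SE 0.091, 95% interval -0.71 to -0.33). Per length, BACH1 was 12.6 ± 0.525 times BACH2 in shRNF26 libraries and 13.9 ± 0.811 times BACH2 in shcontrol libraries.

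NFE2L2 (ENSG00000116044) encodes NRF2, the main inducible activator of the antioxidant genes. It had 82.3, 82.9 and 86.4 CPM in the shRNF26 libraries, against 91.3, 102 and 103 CPM in the shcontrol libraries. At this scaling the groups lay close together without overlapping, and shcontrol replicate 1 was the nearest to the shRNF26 libraries. As a share of total counts, shRNF26 replicate 3 (1485 of 16682871) stood above shcontrol replicate 1 (1590 of 18021718). The level was 1.18-fold lower in shRNF26 libraries (log2 fold change -0.24, SE 0.053, 95% interval -0.35 to -0.12). NFE2L2 overlaps AGPS on the opposite strand, which had a log2 fold change of 0.17, and the labels used here do not state how strand was counted.

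NFE2L1 (ENSG00000082641) encodes NRF1, which is released from the endoplasmic reticulum membrane to activate proteasome genes when proteasome capacity is short. It had the highest level per length of the 8 genes, with 411, 388 and 389 CPM in the shRNF26 libraries, against 428, 427 and 425 CPM in the shcontrol libraries. At this scaling the shRNF26 libraries were all slightly lower (log2 fold change -0.11, SE 0.037, 95% interval -0.19 to -0.030). The value depended on scaling, with -0.017 for total counts and -0.054 for the upper quartile. The call was lost under both scalings, with no minimum on counts (-0.11), and without shcontrol replicate 2 (-0.11), shRNF26 replicate 2 (-0.093) or shRNF26 replicate 3 (-0.094).

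KEAP1 (ENSG00000079999), the sensor that keeps NRF2 low, had 113, 110 and 107 CPM in the shRNF26 libraries, against 109, 104 and 104 CPM in the shcontrol libraries. The groups overlapped, and KEAP1 was the factor not called (log2 fold change 0.06, SE 0.046, 95% interval -0.04 to 0.15). With total-count scaling the log2 fold change was 0.15 and the gene was called higher.

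**Figure D3:**
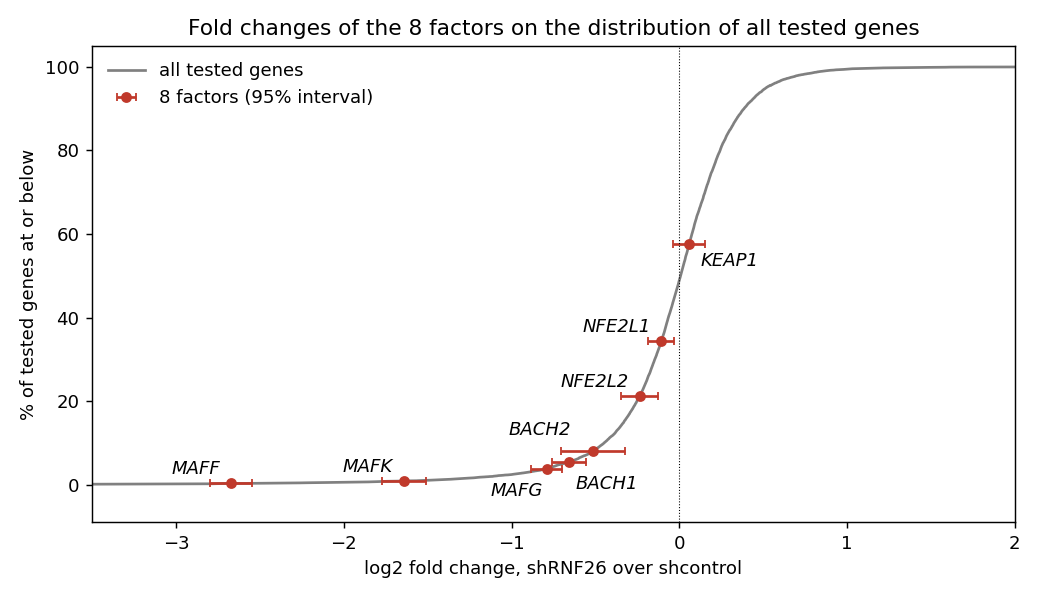
Each red point is 1 of the 8 factors at its log2 fold change (shRNF26 over shcontrol, x axis, with 95% interval) and at the share of all 14766 tested genes with the same or a lower value (y axis); the grey line is the distribution of all tested genes, cut to the range shown. MAFF and MAFK lie in the far lower tail and KEAP1 near the middle.

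The order of the per-length levels differed between groups. In shRNF26 libraries it ran NFE2L1, MAFG, KEAP1, BACH1, NFE2L2, MAFK, MAFF and BACH2, and only the ranges of MAFG and KEAP1 overlapped among neighbours. In shcontrol libraries it ran NFE2L1, MAFG, MAFK, KEAP1, MAFF, BACH1, NFE2L2 and BACH2, and only MAFF and BACH1 overlapped. MAFK and MAFF thus stood below NFE2L2 in shRNF26 libraries and above it in shcontrol libraries. Per length, BACH1 was 1.13 ± 0.028 times NFE2L2 in shRNF26 libraries and 1.52 ± 0.031 times NFE2L2 in shcontrol libraries, with no overlap between groups. NFE2L2 was 0.480 ± 0.025 times KEAP1 in shRNF26 libraries and 0.589 ± 0.053 times KEAP1 in shcontrol libraries.

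Promoter windows from RefSeq (GRCh38.p14, 250 bases before to 50 after an annotated start) were at hand for 7 of the 8 genes, with more than 1 start for several. MAFK was not among them. The windows were searched on both strands for the core of the antioxidant response element (TGACNNNGC), the AP-1 site (TGANTCA), the cAMP response element (TGACGTCA) and the outer flank of the MAF recognition element (TGCTGA). These motifs can overlap one another, and no matches overlapped in the windows shown. Of 35116 windows in the table, 13.3% held the antioxidant core, 7.71% the AP-1 site, 1.85% the cAMP response element and 17.3% the MAF flank. The windows below were picked from those that hold matches. MAFF, BACH1 and BACH2 were called lower and KEAP1 was not. The shown MAFF and BACH2 windows share the cAMP response element, and the shown MAFF and KEAP1 windows share the antioxidant core. A link between motifs and calls was not tested. Capitals mark the matches.
MAFF: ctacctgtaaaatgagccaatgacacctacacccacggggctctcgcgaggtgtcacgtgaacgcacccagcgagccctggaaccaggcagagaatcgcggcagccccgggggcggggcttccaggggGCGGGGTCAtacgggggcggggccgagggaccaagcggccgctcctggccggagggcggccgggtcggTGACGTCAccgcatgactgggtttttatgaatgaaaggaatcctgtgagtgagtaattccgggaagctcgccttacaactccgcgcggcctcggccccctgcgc
BACH1: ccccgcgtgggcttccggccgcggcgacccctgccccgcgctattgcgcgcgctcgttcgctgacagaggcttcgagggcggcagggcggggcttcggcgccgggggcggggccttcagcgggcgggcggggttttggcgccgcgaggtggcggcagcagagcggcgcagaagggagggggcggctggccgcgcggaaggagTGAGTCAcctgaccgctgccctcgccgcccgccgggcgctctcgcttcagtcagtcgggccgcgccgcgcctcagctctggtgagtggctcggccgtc
BACH2: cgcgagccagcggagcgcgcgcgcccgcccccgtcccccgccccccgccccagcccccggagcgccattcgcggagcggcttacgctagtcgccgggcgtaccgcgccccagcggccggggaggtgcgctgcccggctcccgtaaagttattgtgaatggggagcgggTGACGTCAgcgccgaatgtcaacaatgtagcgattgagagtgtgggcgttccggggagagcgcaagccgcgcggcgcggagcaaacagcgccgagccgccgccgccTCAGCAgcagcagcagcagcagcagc
KEAP1: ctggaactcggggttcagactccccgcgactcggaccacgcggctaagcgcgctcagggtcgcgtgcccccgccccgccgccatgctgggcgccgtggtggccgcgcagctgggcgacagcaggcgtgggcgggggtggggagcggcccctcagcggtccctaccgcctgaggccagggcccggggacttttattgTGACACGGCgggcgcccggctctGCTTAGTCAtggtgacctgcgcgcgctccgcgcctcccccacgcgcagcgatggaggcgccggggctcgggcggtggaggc

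The MAFF window (chr22:38201744-38202043, plus strand) has a cAMP response element and an antioxidant core. The BACH1 window (chr21:29298672-29298971, plus strand) has an AP-1 site, and another BACH1 window, not shown, has a MAF flank. The BACH2 window (chr6:90296794-90297093, minus strand) has a cAMP response element and a MAF flank. The KEAP1 window (chr19:10502722-10503021, minus strand) has 2 antioxidant cores. The other MAFF window, the other KEAP1 window and the remaining BACH1 window, not shown, held none of the motifs searched. The windows of MAFG and NFE2L2, which were also called lower, held none either. The only match in the NFE2L1 windows was a MAF flank. A match of letters is a description and not evidence of binding.

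The genes whose profiles over the 6 libraries lay closest to those of the small MAF genes were found by the distance between mean-centred log2 CPM. Closest to MAFF were PIM1, a serine/threonine kinase, at a distance of 0.108, and PPP1R15A, a stress-induced phosphatase subunit, at 0.127. PIM1 averaged 29.6 ± 1.36 CPM in shRNF26 libraries and 186 ± 9.06 CPM in shcontrol libraries. Closest to MAFK were the ephrin receptor EPHA2 (0.154) and the circadian gene NOCT (0.161). Closest to MAFG were TMCC1 (0.055) and the nuclear receptor gene NR4A2 (0.060), the last at 4.81 ± 0.266 CPM in shRNF26 libraries and 8.84 ± 0.267 CPM in shcontrol libraries. With 6 libraries in 2 groups, such a distance mostly compares the size of the group difference.

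Of 5 relatives of the 8 factors, 3 had a mean below 1 CPM, namely NFE2, MAF and MAFA. NFE2L3, another cap'n'collar factor of the endoplasmic reticulum, fell to 69.4 CPM on average in shRNF26 libraries, against 80.9 CPM in shcontrol libraries (edgeR adjusted p = 0.0083, log2 fold change -0.22 with SE 0.063), so 1 relative was lower and 0 higher. That call was lost with total-count scaling (-0.13) and without shcontrol replicate 1 (-0.14). NFE2L3 overlaps the abundant HNRNPA2B1 on the opposite strand. The large MAF factor NRL was measured and had a log2 fold change of -0.10 (SE 0.32) that did not pass.

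Genes for proteins that act on NRF2 turnover were divided: among 14 tested genes 3 were called higher and 5 lower, 6 were not called, and the list median was 0.01. Over all tested genes the shares were 18.9% higher and 22.6% lower, which are the shares to read the counts of every list below against. SESN2, a stress-induced protein reported to promote the removal of KEAP1, fell 2.33-fold, to between 22.2 and 23.3 CPM in shRNF26 libraries, against 52.1 to 54.9 CPM in shcontrol libraries (edgeR adjusted p = 1.12e-11). CUL3, the scaffold of the ligase that KEAP1 serves, fell by 0.26 on the log2 scale, and PGAM5, a mitochondrial partner of KEAP1, by 0.28. DPP3, which competes with NRF2 for KEAP1, rose by 0.28. Without shRNF26 replicate 1 the count of rises was 1.

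Genes for the processing and turnover of NRF1 included 4 that fell and 1 that rose among 9 tested, with a median of 0.01. With total-count scaling the balance turned to 4 higher and 3 lower. The endoplasmic reticulum ligase SYVN1 (-0.43) and its cofactor SEL1L (-0.28), which serve the extraction of NRF1 from the membrane, fell, as did FBXW7 (-0.35), a ligase subunit that targets NRF1. HCFC1, a partner of the sugar transferase OGT in stabilising NRF1, rose by 0.25. The values in this list are log2 fold changes. SYVN1 overlaps MRPL49 on the opposite strand and FAU on the same strand, and FAU itself fell by 0.25 (SE 0.043). The 3 tested genes for BACH1 turnover and export were not called, with FBXL17 at 0.28 (SE 0.13, edgeR adjusted p = 0.095) and FBXO22 at -0.10 (SE 0.055, edgeR adjusted p = 0.17). At an unadjusted p below 0.05, 1 of the 3 passed, and DESeq2 called 0. FBXL17 became called higher with total-count scaling (0.37), with the upper quartile (0.33) and without shcontrol replicate 3 (0.40).

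**Figure D4:**
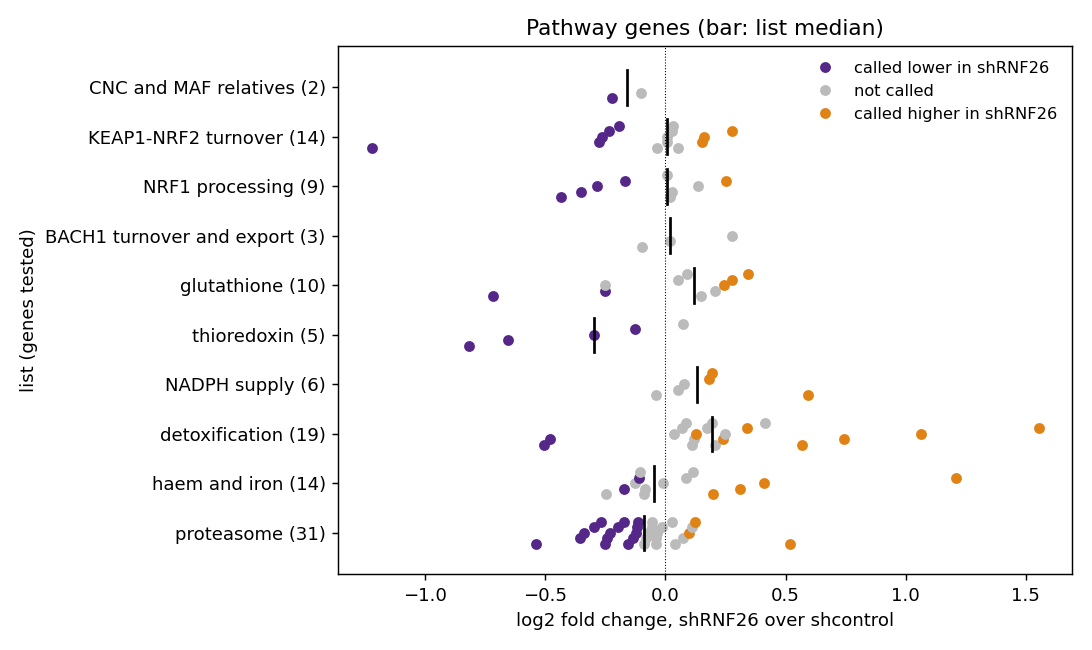
Log2 fold change (shRNF26 over shcontrol, x axis) of every tested gene in 10 pathway lists (y axis, number tested in parentheses). Colour gives the edgeR call and the black bar the list median. The thioredoxin genes lie mostly below 0 and the detoxification and NADPH genes mostly above it.

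Genes served by NRF2, the small MAF proteins and BACH1 did not move in a single direction. Over 5 lists with 54 tested genes, 17 were called higher, 10 lower and 27 not at all, with a median log2 fold change of 0.10. That is 50% called, where 41.4% of all tested genes were called. In the thioredoxin list, 4 of 5 fell and 0 rose, with a median of -0.30, where 22.6% of all tested genes were called lower. Total-count and upper-quartile scaling each gave 3 lower and 1 higher. TXNRD1, the cytosolic thioredoxin reductase, fell 1.76-fold, to between 237 and 250 CPM in shRNF26 libraries, against 414 to 450 CPM in shcontrol libraries (edgeR adjusted p = 9.37e-12, log2 fold change -0.82 with SE 0.042). SRXN1, which repairs overoxidised peroxiredoxins, fell by 0.66 on the log2 scale and thioredoxin itself, TXN, by 0.30. The peroxidase gene PRDX1 had -0.13, and this call was lost with total-count scaling (-0.04), with the upper quartile (-0.07), and without shcontrol replicate 3 (-0.08), shRNF26 replicate 1 (-0.13) or shRNF26 replicate 2 (-0.10). TXNRD1 overlaps the pseudogene RPL18AP3 and the protein-coding gene EID3 on the same strand. RPL18AP3 had a log2 fold change of -0.12 (SE 0.074) and was not called. EID3 was called lower (-0.89, SE 0.35), at 0.716 CPM in shRNF26 libraries and 1.33 CPM in shcontrol libraries.

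Glutathione genes were divided, with 3 of 10 higher, 2 lower and 5 not passing (median 0.12), or 5 higher and 1 lower with total-count scaling. The cystine transporter gene SLC7A11 fell 1.64-fold, to between 48.6 and 49.6 CPM in shRNF26 libraries, against 73.8 to 87.5 CPM in shcontrol libraries (edgeR adjusted p = 1.98e-08). GCLM, the modifier subunit of the enzyme that starts glutathione synthesis, fell by 0.25 on the log2 scale, which was no longer called with total-count scaling (-0.16). Glutathione reductase, GSR, rose by 0.35 and the microsomal transferase MGST1 by 0.28. In the list for NADPH supply, 3 of 6 rose and 0 fell (median 0.13), and total-count scaling gave 5 higher. The largest rise was in IDH1, the cytosolic isocitrate dehydrogenase, at 101 to 106 CPM in shRNF26 libraries, against 66.9 to 71.6 CPM in shcontrol libraries (log2 fold change 0.59, SE 0.049). PGD (0.19) and TKT (0.18), enzymes of the pentose phosphate pathway, were the others.

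Among detoxification genes 7 of 19 were higher, 2 lower and 10 not passing (median 0.19), where 18.9% of all tested genes were called higher and 22.6% lower. The 7 became 14 with total-count scaling and 11 with the upper quartile. AKR1C2, which reduces steroids and other carbonyls, rose 2.94-fold, to between 15.4 and 18.5 CPM in shRNF26 libraries, against 4.93 to 6.15 CPM in shcontrol libraries. Its relative AKR1C3 rose 1.48-fold. PIR, an iron-binding nuclear protein, rose 1.68-fold (log2 fold change 0.74, SE 0.065), and the glucuronosyltransferase UGT1A6 rose 2.09-fold at 2.97 to 3.60 CPM in shRNF26 libraries, against 0.919 to 2.07 CPM in shcontrol libraries. AKR1C and UGT1A genes have near-identical relatives or shared exons, so their single values are uncertain. NQO1, the standard reporter gene of NRF2 activity, was outside the rule for named genes and is added for that role. It had a log2 fold change of 0.04 with SE 0.046 (edgeR adjusted p = 0.56). The 2 detoxification genes called lower, also outside the rule, were UGDH (log2 fold change -0.51, SE 0.060) and OSGIN1 (-0.48, SE 0.14). The count of lower genes was 1 without shRNF26 replicate 2.

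Haem and iron genes, the classical targets of BACH1 among them, showed 4 of 14 higher, 2 lower and 8 not passing (median -0.05), or 5 higher and 0 lower with total-count scaling. The 2 called lower were the ferritin gene FTL (log2 fold change -0.17, SE 0.046) and TFRC (-0.11, SE 0.040). The ferritin gene FTH1 was not called (-0.08, SE 0.049). ABCB6, a porphyrin transporter, rose 2.31-fold, at 2.01 to 2.68 CPM in shRNF26 libraries, against 0.913 to 1.04 CPM in shcontrol libraries. The counts behind these levels were few, 37 to 46 in shRNF26 libraries and 15 to 18 in shcontrol libraries. ABCB6 overlaps AC068946.2 on the same strand, which averaged 0.338 CPM in shRNF26 libraries and 0.079 CPM in shcontrol libraries. FECH, which inserts iron into haem, rose by 0.41 on the log2 scale and the iron-responsive aconitase ACO1 by 0.31. BLVRA had 0.20, a call lost with no minimum on counts (0.20), with DESeq2 (0.20), and without shcontrol replicate 2 (0.18), shcontrol replicate 3 (0.14), shRNF26 replicate 1 (0.17) or shRNF26 replicate 2 (0.18). HMOX1, the best known gene repressed by BACH1, is likewise added for its role. It had 8.05 to 8.84 CPM in shRNF26 libraries and 8.46 to 10.6 CPM in shcontrol libraries (edgeR adjusted p = 0.53, log2 fold change -0.11 with SE 0.13). The count of lower genes was 1 without shcontrol replicate 3 or shRNF26 replicate 2, and 0 without shRNF26 replicate 1.

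Among 31 tested proteasome genes, which NRF1 activates, 15 were called lower, 3 higher and 13 not at all, with a median of -0.09, where 22.6% of all tested genes were called lower and 18.9% higher. PSMD2, a subunit of the regulatory particle, fell 1.45-fold, to between 397 and 419 CPM in shRNF26 libraries, against 576 to 612 CPM in shcontrol libraries (log2 fold change -0.54, SE 0.038). PSMD12 (-0.36) and the ATPase PSMC1 (-0.34) followed. Under total-count scaling 8 were lower and 6 higher. PSMA2 had 0.52, with 3.66 to 5.05 CPM in shRNF26 libraries and 2.62 to 3.39 CPM in shcontrol libraries, and the call was lost with no minimum on counts (0.52), with DESeq2 (0.52), and without shcontrol replicate 2 (0.44), shcontrol replicate 3 (0.49), shRNF26 replicate 2 (0.37) or shRNF26 replicate 3 (0.56). PSMA2 overlaps AC010132.3 on the same strand and MRPL32 on the opposite strand. Its level was low beside PSMA3, which averaged 124 CPM in shRNF26 libraries and 121 CPM in shcontrol libraries. Whether reads of PSMA2 were counted elsewhere was not tested. With any 1 library left out, 0 to 1 proteasome genes were called higher.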

How the data were processed

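RNA was sequenced from 3 shRNF26 and 3 shcontrol libraries, made with a directional kit per the labels' protocols. The authors deposited 1 table of whole-number gene counts, although it is named for FPKM. The submitters' processing notes name build hg19; aligner, counter, annotation and strand setting are not stated there or in the labels. There were 2 blank rows, left out, which held 0 counts. A gene name table matched 61369 IDs, and GENCODE 29 another 159. GENCODE 29 gave overlaps and exon lengths (the union of all exons of a gene), and RefSeq the promoters.

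Counts of genes with a mean of at least 1 CPM were tested with edgeR 4.0.16 in R 4.3.3 (quasi-likelihood, TMM scaling, two-sided), with Benjamini-Hochberg adjustment over 14766 genes and a threshold of 0.05. SE was derived from the log2 fold change and the F statistic. Levels are TMM-scaled CPM, and 1 count is worth 0.0555 to 0.0599 CPM of total counts. Replicates differed by more than sampling noise (chi-square per degree of freedom 2.15 to 4.28). The test was tried on simulated counts, and the outcome is not reported here. The 8 factors, lists and tests were chosen with earlier results of these data known. Named were all 8 factors and RNF26, up to 4 called genes of each of 10 lists by absolute log2 fold change (or 2 by smallest p), and the 2 nearest profiles of 3 factors. A few genes were added after their values were seen, for their role, for scale or to name the genes of a list called lower. Alternatives were total-count and upper-quartile scaling, DESeq2 1.42.0, other filters, a robust fit, the replicate block and leaving out each library. A few listed genes are not reported here.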

Additional observations from a re-analysis of the deposited data

How the results depend on the processing

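The 8 log2 fold changes kept their sign under every alternative run. Total-count scaling moved the median of all genes by 0.09 on the log2 scale and gave -2.58 for MAFF, -0.70 for MAFG, -0.57 for BACH1, -0.42 for BACH2, -0.017 for NFE2L1, -0.15 for NFE2L2 and 0.15 for KEAP1. The upper quartile gave -0.74 for MAFG, -0.46 for BACH2, -0.054 for NFE2L1 and 0.11 for KEAP1. With 1 library left out, 6 to 7 of the 8 factors were called lower and 0 higher, with ranges of -2.74 to -2.63 for MAFF, -1.72 to -1.59 for MAFK and -0.83 to -0.76 for MAFG. Calls over all genes were 4449 higher with total counts, and 2184 to 2572 higher and 2791 to 3232 lower with 1 library left out.

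With total counts 1 of the 8 factors was called higher, 0 relatives lower, 4 NRF1 processing genes higher, 1 BACH1 turnover gene higher, 5 glutathione genes higher and 1 lower, 1 thioredoxin gene higher, 5 NADPH genes higher, 14 detoxification genes higher, 0 haem and iron genes lower, and 6 proteasome genes higher and 8 lower. The upper quartile gave 1 BACH1 turnover gene higher, 1 thioredoxin gene higher, 11 detoxification genes higher and 1 haem and iron gene lower. With no minimum on counts 1 haem and iron gene was lower and 1 proteasome gene higher. With 1 library left out, lists gave 0 to 1 relatives lower, 1 to 2 NRF2 turnover genes higher, 0 to 1 BACH1 turnover genes higher, 1 to 3 detoxification genes lower, 0 to 2 haem and iron genes lower and 0 to 1 proteasome genes higher. The causes were not tested beyond the scaling itself.

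Replicate numbers did not pair the libraries, since the correlations of their deviations were 0.014, -0.028 and 0.055 and not every library correlated best with its own number. With the replicate block 7 of the 8 factors were lower, and 2935 genes were called higher and 3479 lower. At this depth BACH2, with 217 to 307 counts a library, is the least precise of the 8 factors.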
